A study of Rattus norvegicus with 6 samples.

Results

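The injury markers described here are 10 genes that astrocytes switch on after damage to the central nervous system: Serpina3n, Osmr, Steap4, S1pr3, Cd44, Emp1, Tm4sf1, Cd109, Ptx3 and Slc10a6. They were chosen by name and looked up in the gene and transcript tables, where 9 of the 10 had a row among 32623 genes, with 17 of 40808 transcripts. Serpina3n, a serine protease inhibitor, had no row under that name, so its expression was not analysed here. All 9 passed the filter on low values, a mean of at least 0.5 FPKM (fragments per kilobase of exon, scaled by depth) over the 6 libraries, which 15750 genes passed.

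The tissue was cord of female Wistar rats, 8 weeks of age, with a spinal cord injury. In the ES group, of 3 libraries, the rats were given electrical stimulation, and in the SCI group, also of 3 libraries, they were not. No uninjured cord was analysed here, so the levels below are those of injured tissue in both groups. The labels give neither the injury method, the site or schedule of stimulation and the time of sampling, nor whether each library is a separate rat. The p-values therefore reflect library-to-library spread alone, and that may be technical. Depth, estimated from the smallest steps of the transcript values with 1 step taken as 1 read pair, was 13900000 to 16100000 read pairs in ES and 16300000 to 18600000 in SCI.

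After an injury, astrocytes enlarge, raise their intermediate filaments and turn on secreted and surface proteins, a state called reactive. In mice, genes of this state have been sorted into a pan-reactive set shared by several kinds of damage, a set strongest after ischaemia (called A2) and a set strongest after lipopolysaccharide (called A1). Serpina3n, Osmr, Steap4, S1pr3 and Cd44 come from the pan-reactive set, and Emp1, Tm4sf1, Cd109, Ptx3 and Slc10a6 from the ischaemia set. A main route into the state is cytokine signalling through receptors that share the gp130 chain, which activates the transcription factor STAT3. None of these genes is made by astrocytes alone. Vessel cells, fibroblasts and leukocytes also express several of them, so bulk cord cannot assign them to a cell.

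With stimulation, S1pr3 and Tm4sf1 stood at about 50% of their level without it, and Cd109, Cd44 and Steap4 fell by 34.2%, 24.5% and 23.0%. Slc10a6 went the other way and was 1.70-fold higher. Emp1 rose by 9.95%, Osmr fell by 13.1%, and Ptx3 did not pass the test. In the test over all genes 8 of the 9 differed, 6 lower and 2 higher in ES. That test was limma on log2(FPKM + 1) with Benjamini-Hochberg adjustment. Of all 15750 genes tested 45% differed, 27.6% lower and 17.4% higher, so a call alone does not set a gene apart in these data. The split over all genes, 2747 higher and 4341 lower, moved with the scaling, to 3414 and 3257 under quantile normalization, to 2070 and 5584 with totals made equal, and to 4021 and 2975 with medians centred. The median log2 fold change was -0.35 over the 9 genes and -0.06 over all genes tested. In all 9 genes every ES library lay on the same side of every SCI library, 6 below and 3 above, which was so for 56.5% of all genes tested, 34.6% below and 21.9% above. In bulk tissue, fewer cells of a type and less RNA per cell cannot be told apart.

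**Figure D1:**
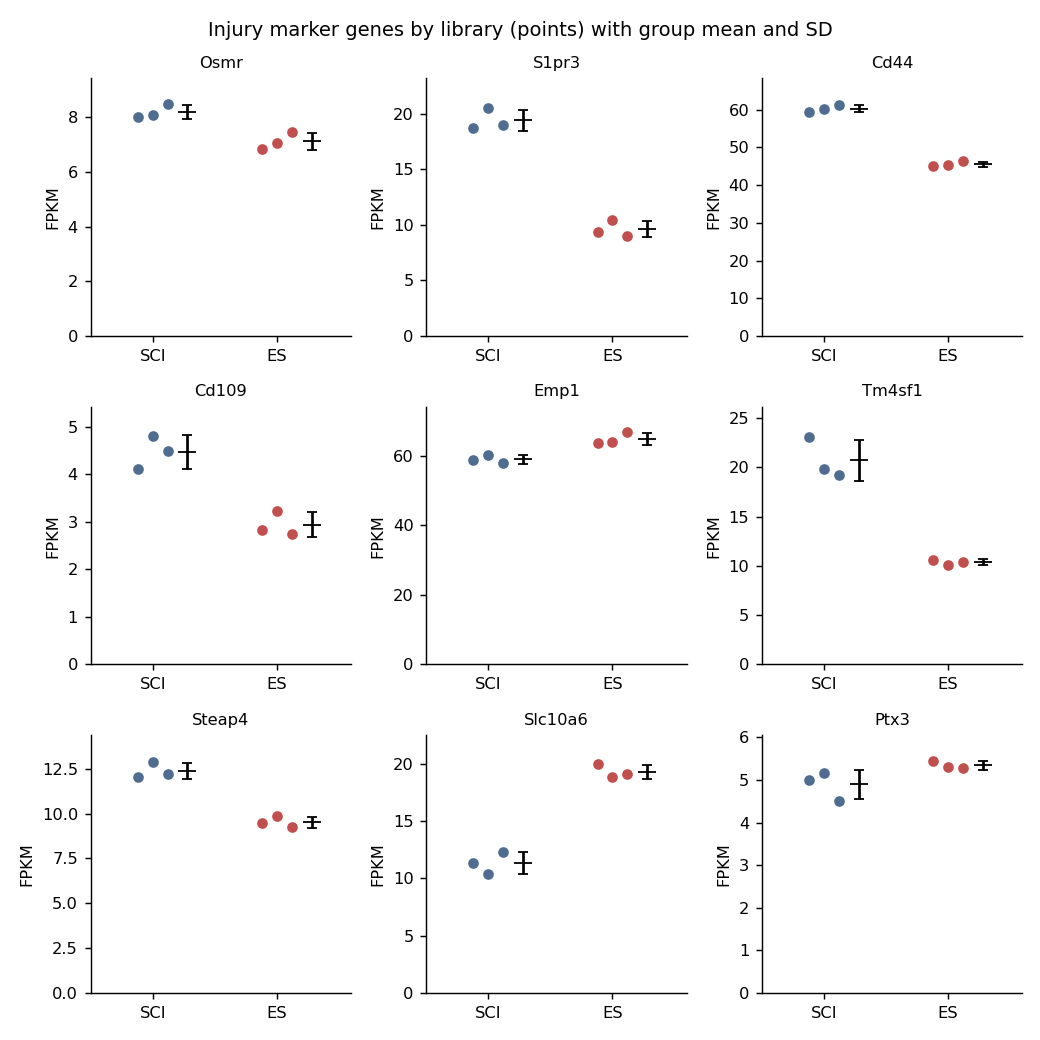
Level of each injury marker in FPKM (vertical axes, from 0) in the 3 SCI and 3 ES libraries; points are libraries, and the black mark and bar beside them are the mean and SD. S1pr3 and Tm4sf1 show the widest relative gap downwards, at 9.05 to 10.7 FPKM in ES against 18.7 to 23.1 in SCI, and Slc10a6 the widest relative gap upwards, at 18.9 to 19.98 against 10.4 to 12.3.

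Promoters of 4 genes are shown, S1pr3 and Steap4, which fell, and Slc10a6 and Emp1, which rose, because STAT3 and AP-1 are factors known to act on injury genes. The stretch searched was the 250 bases before the start of each gene in the RefSeq annotation of assembly GRCr8, which held 9 of the 10 genes (all but Cd109, and with Serpina3n, which has no expression value here). The letters searched were TTCNNNGAA, a STAT site, and TGANTCA, an AP-1 site. Each reads the same on both strands. Of 33469 promoters of the same length 7.67% held the first and 6.34% the second. In Steap4 and Emp1, below, the capitals mark these letters, and S1pr3 and Slc10a6 hold neither.
Steap4, GRCr8 chr4:27054770-27055019, minus strand: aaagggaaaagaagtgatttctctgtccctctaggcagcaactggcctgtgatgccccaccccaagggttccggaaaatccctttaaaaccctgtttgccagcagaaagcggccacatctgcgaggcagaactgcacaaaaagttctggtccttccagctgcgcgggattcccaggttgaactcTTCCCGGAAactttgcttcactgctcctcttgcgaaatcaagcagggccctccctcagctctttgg
Emp1, GRCr8 chr4:169943980-169944229, plus strand: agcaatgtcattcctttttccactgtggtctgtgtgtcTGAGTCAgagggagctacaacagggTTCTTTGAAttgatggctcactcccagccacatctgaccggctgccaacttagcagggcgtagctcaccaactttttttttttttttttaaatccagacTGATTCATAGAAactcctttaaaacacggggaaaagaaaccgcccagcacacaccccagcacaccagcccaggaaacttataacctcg
S1pr3, GRCr8 chr17:13946014-13946263, minus strand: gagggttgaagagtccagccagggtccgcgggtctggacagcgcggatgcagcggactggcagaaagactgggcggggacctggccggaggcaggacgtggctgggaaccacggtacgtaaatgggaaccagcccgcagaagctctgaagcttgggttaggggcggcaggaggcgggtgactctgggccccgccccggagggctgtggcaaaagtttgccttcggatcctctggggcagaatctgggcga
Slc10a6, GRCr8 chr14:6385325-6385574, plus strand: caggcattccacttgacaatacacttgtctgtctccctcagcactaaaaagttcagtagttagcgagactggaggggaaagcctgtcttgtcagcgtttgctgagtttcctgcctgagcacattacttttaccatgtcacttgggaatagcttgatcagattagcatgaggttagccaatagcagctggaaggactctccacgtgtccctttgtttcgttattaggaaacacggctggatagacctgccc
Steap4 held 1 STAT match, which begins 66 bases before the start. Emp1 held 2 of each, and its second AP-1 match, 88 bases before the start, overlaps its second STAT match, at 85. Serpina3n held 1 STAT match and Osmr 1 AP-1 match, 33 bases before the start. Tm4sf1, Cd44 and Ptx3 held neither. In all, 3 of these 9 promoters held the first and 2 the second. The genes with the largest changes, S1pr3, Tm4sf1 and Slc10a6, were thus without either in this window. A match is a run of letters and not a measured site, and its absence says nothing about sites elsewhere.

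The receptors come first. S1pr3 encodes a G protein-coupled receptor for the lipid sphingosine 1-phosphate (ENSRNOG00000014524, chromosome 17, 13799383 to 13812704 on the minus strand in the files' coordinates, whose build is not given). It had 9.35, 10.4 and 9.05 FPKM in its ES libraries, in the order of their replicate numbers, and 18.7, 20.5 and 19.03 in SCI. The highest ES library lay well under the lowest SCI library. The means were 9.61 ± 0.720 and 19.4 ± 0.949 FPKM (SD, n = 3), a 2.02-fold difference, with a log2 fold change of -0.95 ± 0.06 (SE, adjusted p = 6.51e-05). Of all genes tested 3.77% had a larger change in size.

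Osmr encodes the beta chain of the oncostatin M receptor, which pairs with gp130 (ENSRNOG00000033192, chromosome 2, 56110777 to 56151531). It stood at 6.83, 7.07 and 7.44 FPKM in ES and at 7.99, 8.08 and 8.47 in SCI. The groups did not overlap, but the gap between them was narrow. The means were 7.11 ± 0.308 and 8.18 ± 0.258 FPKM (SD, n = 3), with a log2 fold change of -0.18 ± 0.05 (SE, adjusted p = 0.0301). The call was lost without any 1 of ES replicates 1 and 2 and SCI replicates 1 to 3 (adjusted p from 0.0523 to 0.0904), and under quantile normalization (adjusted p = 0.223) and median centring (adjusted p = 0.220). It held without ES replicate 3 (adjusted p = 0.0379).

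Cd44 encodes the main cell surface receptor for the matrix sugar hyaluronan (ENSRNOG00000006094, chromosome 3, 92696313 to 92783658). Its 3 ES libraries stood at 45.0, 45.2 and 46.3 FPKM and its SCI libraries at 59.5, 60.2 and 61.2. It had the smallest relative spread of the 9 genes, 1.57% in ES and 1.49% in SCI, near the 1.71% that sampling of an estimated 2493 to 4528 fragments would give. The means were 45.5 ± 0.714 and 60.3 ± 0.896 FPKM (SD, n = 3), with a log2 fold change of -0.40 ± 0.03 (SE, adjusted p = 6.92e-05). Cd109 encodes a surface protein of the alpha-2-macroglobulin family that binds transforming growth factor beta (ENSRNOG00000025332, chromosome 8, 85951191 to 86065409). It was the lowest of the 9 in level, at 2.83, 3.23 and 2.74 FPKM in ES and 4.10, 4.81 and 4.48 in SCI. The groups did not overlap, and the log2 fold change was -0.47 ± 0.08 (SE, adjusted p = 0.00380).

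Of the small membrane proteins with a chain that crosses the membrane several times, Tm4sf1 and Emp1 differed in direction. Tm4sf1, a surface protein abundant in endothelium and tumour cells (ENSRNOG00000015812, chromosome 2, 147382866 to 147392062), stood at 10.7, 10.1 and 10.4 FPKM in ES. In SCI it stood at 23.1, 19.9 and 19.2 FPKM, with replicate 1 above the others. The means were 10.4 ± 0.263 and 20.7 ± 2.10 FPKM (SD, n = 3), with a log2 fold change of -0.93 ± 0.07 (SE, adjusted p = 0.000123). The spread was 10.1% in SCI against 2.53% in ES, where sampling of 290 to 737 estimated fragments gives 4.48%. Without SCI replicate 1 the log2 fold change was -0.85.

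Emp1, epithelial membrane protein 1 of the PMP22 family (ENSRNOG00000008676, chromosome 4, 169147243 to 169181966), was the highest of the 9 in level in ES, and second to Cd44 in SCI. It stood at 63.5, 63.9 and 66.8 FPKM in ES and at 58.8, 60.2 and 57.8 in SCI. The groups lay close together without overlap. The log2 fold change was 0.13 ± 0.03 (SE, adjusted p = 0.0129), and the call was lost after rescaling to equal totals (adjusted p = 0.149). Its relatives went the other way: Emp2 fell from 17.0 ± 0.677 to 9.98 ± 0.193 FPKM, Emp3 from 128 ± 2.97 to 88.8 ± 1.95, and Pmp22, a protein of Schwann cell myelin, from 299 ± 6.26 to 148 ± 0.393 (SD, n = 3). Of the 3 relatives 3 passed the test (log2 fold changes -0.71, -0.52 and -1.01). Among other genes of the Tm4sf1 family, Tm4sf19 fell from 4.45 ± 0.248 to 2.10 ± 0.308 FPKM, and Tm4sf4 stood at 1.02 ± 0.215 against 0.737 ± 0.234 FPKM (adjusted p = 0.241).

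Next come the enzyme and the transporter. Steap4 encodes a metalloreductase that reduces iron and copper at membranes (ENSRNOG00000008602, chromosome 4, 23090029 to 23135354). It stood at 9.49, 9.85 and 9.24 FPKM in ES and at 12.1, 12.9 and 12.2 in SCI. No ES library reached the SCI range, and the log2 fold change was -0.35 ± 0.05 (SE, adjusted p = 0.00134). Among its family Steap2 stood at 5.66 ± 0.433 FPKM in ES against 4.80 ± 0.0506 in SCI (adjusted p = 0.0445), a call that was lost in 8 of 15 alternatives, among them each single omission other than that of ES replicate 3 (adjusted p up to 0.130 over the alternatives). Steap1 and Steap3 did not pass (adjusted p = 0.343 and 0.241).

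Slc10a6 encodes a sodium-dependent uptake carrier for sulfated steroids (ENSRNOG00000002057, chromosome 14, 7618022 to 7682377). Its ES libraries stood at 19.98, 18.9 and 19.1 FPKM and its SCI libraries at 11.3, 10.4 and 12.3. Every ES library was thus above every SCI library by at least 6 FPKM. The means were 19.3 ± 0.583 and 11.3 ± 0.939 FPKM (SD, n = 3), with a log2 fold change of 0.72 ± 0.06 (SE, adjusted p = 0.000198), and 7.62% of all genes tested had a larger change in size. Of 4 tested relatives, Slc10a7 stood at 7.51 ± 0.523 against 5.95 ± 0.274 FPKM (adjusted p = 0.0111), and Slc10a4, a carrier-like protein of cholinergic and aminergic vesicles, at 3.29 ± 0.139 against 2.43 ± 0.432 (adjusted p = 0.0409). The Slc10a4 call was lost without any 1 of the libraries other than SCI replicate 3 (adjusted p up to 0.106 over the alternatives), and Slc10a3 did not pass (9.99 ± 0.668 against 11.6 ± 0.836 FPKM, adjusted p = 0.0610).

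Ptx3 encodes the long pentraxin PTX3, a secreted pattern recognition protein that binds complement C1q (ENSRNOG00000012280, chromosome 2, 158097843 to 158103653). It stood at 5.45, 5.29 and 5.28 FPKM in ES and at 4.999, 5.17 and 4.51 in SCI. The groups touched closely without overlap. The log2 fold change was 0.11 (95% interval -0.04 to 0.26, adjusted p = 0.211). An estimated 146 to 165 fragments lay behind each value, the fewest of the 9 genes, and that number alone gives a spread of 7.96%. The observed spread was 1.80% in ES and 7.00% in SCI. The test was passed under quantile normalization (adjusted p = 0.0240) and median centring (adjusted p = 0.0395). Of the neuronal pentraxins, which gather glutamate receptors at synapses, Nptxr rose from 7.05 ± 0.141 to 12.2 ± 0.329 FPKM and Nptx1 from 1.89 ± 0.276 to 3.14 ± 0.178, and Nptx2 did not pass (2.15 ± 0.170 against 2.19 ± 0.292 FPKM, adjusted p = 0.923).

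**Figure D2:**
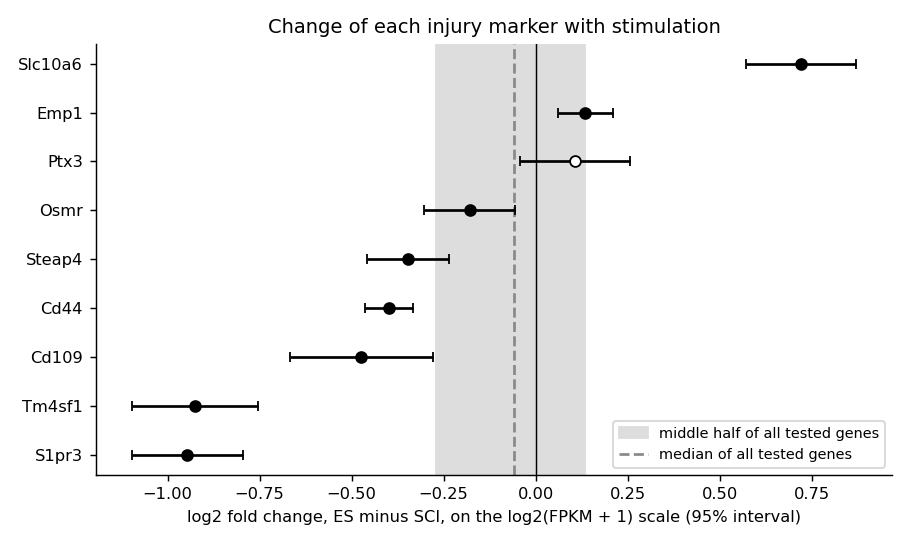
Log2 fold change of each injury marker (horizontal axis, ES minus SCI on the log2(FPKM + 1) scale) with its 95% interval; filled points passed the test and the open one, Ptx3, did not. S1pr3, at -0.95, and Tm4sf1, at -0.93, lie farthest to the left and Slc10a6, at 0.72, farthest to the right of the grey interquartile range of all tested genes, -0.27 to 0.13.

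Serpina3n had no value, and its close relatives gave little in its place. Serpina3c and Serpina3m were listed at 0 in all 6 libraries. Of 5 granule protease genes whose products inhibitors of this kind act on, 0 reached the filter. Among other serpins 4 rose and 3 fell of 8 tested. The call of Serpini1, among those that rose, was lost in 10 of 15 alternatives, among them each single omission (adjusted p up to 0.127). Serpinf1, the antiangiogenic factor PEDF, fell from 101 ± 2.13 to 52.6 ± 1.33 FPKM (SD, n = 3), and Serping1, the C1 inhibitor, from 280 ± 3.76 to 154 ± 2.23.

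The transcript table divided 6 of the 9 genes into several models. A gene value in these tables is the sum of transcript FPKM times transcript length, divided by a length fixed for each gene. That length was constant over the 6 libraries within 0.1% in 100% of the 13305 genes checked. It was not compared with the length of the merged exons. Transcript values of a gene can therefore add up to more than its gene value. Of the 17 transcripts 13 passed the filter and 6 differed, 5 lower and 1 higher in ES, beside 32.3% of 19223 transcripts tested, 19.5% lower and 12.8% higher. The models overlap, so reads in shared exons were divided by the authors' software, and single model values are uncertain.

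For Cd44, whose exons between constant ends are spliced in many combinations, the 19-exon model ENSRNOT00000009000 stood at 37.6, 38.1 and 38.2 FPKM in ES and 51.8, 51.6 and 53.0 in SCI. The 9-exon model ENSRNOT00000009073 stood at 21.3, 20.4 and 23.5 FPKM in ES and 22.1, 24.7 and 23.9 in SCI. The long model separated the groups and the short one did not. Their log2 fold changes were -0.45 ± 0.02 (SE, adjusted p = 0.000122) and -0.11 ± 0.07 (SE, adjusted p = 0.259). The share of the short model in the gene's transcript FPKM was 36.1%, 34.8% and 38.1% in ES and 29.9%, 32.4% and 31.1% in SCI. The test of usage, limma's diffSplice with a Simes p, did not call this shift (adjusted p = 0.115). Another model, of 11 exons, was listed at 0 in all 6 libraries.

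For S1pr3 the 2-exon model ENSRNOT00000019473 carried the difference, at 7.81, 10.7 and 7.58 FPKM in ES and 19.2, 21.0 and 18.5 in SCI (log2 fold change -1.10 ± 0.13 SE, adjusted p = 0.00217). The 3-exon model ENSRNOT00000085581 stood at 1.82, 0.0245 and 1.74 FPKM in ES and at 0.00668, 0.0300 and 1.02 in SCI. Its values split within both groups, with ES replicate 2 low and SCI replicate 3 high. The usage test did not pass (adjusted p = 0.0902) but did without ES replicate 2 (adjusted p = 0.0125). The models are 3606 and 3515 bases long.

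For Slc10a6 the 2 models, of 1113 and 1110 bases, differ by 3 bases in end coordinate. The first stood at 15.8, 9.18 and 13.9 FPKM in ES and 8.54, 7.47 and 7.55 in SCI, and the second at 5.79, 11.2 and 6.71 in ES and 3.70, 3.78 and 5.73 in SCI. ES replicate 2 was lowest of its group in the first and highest in the second. Neither passed alone (adjusted p = 0.0554 and 0.101), although the gene did, and the first passed without ES replicate 2 (adjusted p = 0.00471). The first also passed with a filter of 2 FPKM (adjusted p = 0.0479), quantile normalization (adjusted p = 0.0391) and median centring (adjusted p = 0.0356). For Emp1 the 6-exon model ENSRNOT00000011580 stood at 61.9, 60.2 and 64.9 FPKM in ES and 53.5, 57.6 and 55.4 in SCI (adjusted p = 0.0303). That call was lost without any 1 of ES replicates 1 and 3 and SCI replicates 1 and 3 (adjusted p from 0.0756 to 0.0825), and under quantile normalization, equal totals, no trend and the replicate block (0.0588 to 0.138). The 5-exon model did not pass (23.4 ± 4.13 against 25.7 ± 6.17 FPKM, adjusted p = 0.690). Of these 4 genes with at least 2 tested models, 0 passed diffSplice at an adjusted p under 0.05 and 2 had an unadjusted p under 0.05, beside 8.81% and 23.8% of 2589 genes.

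**Figure D3:**
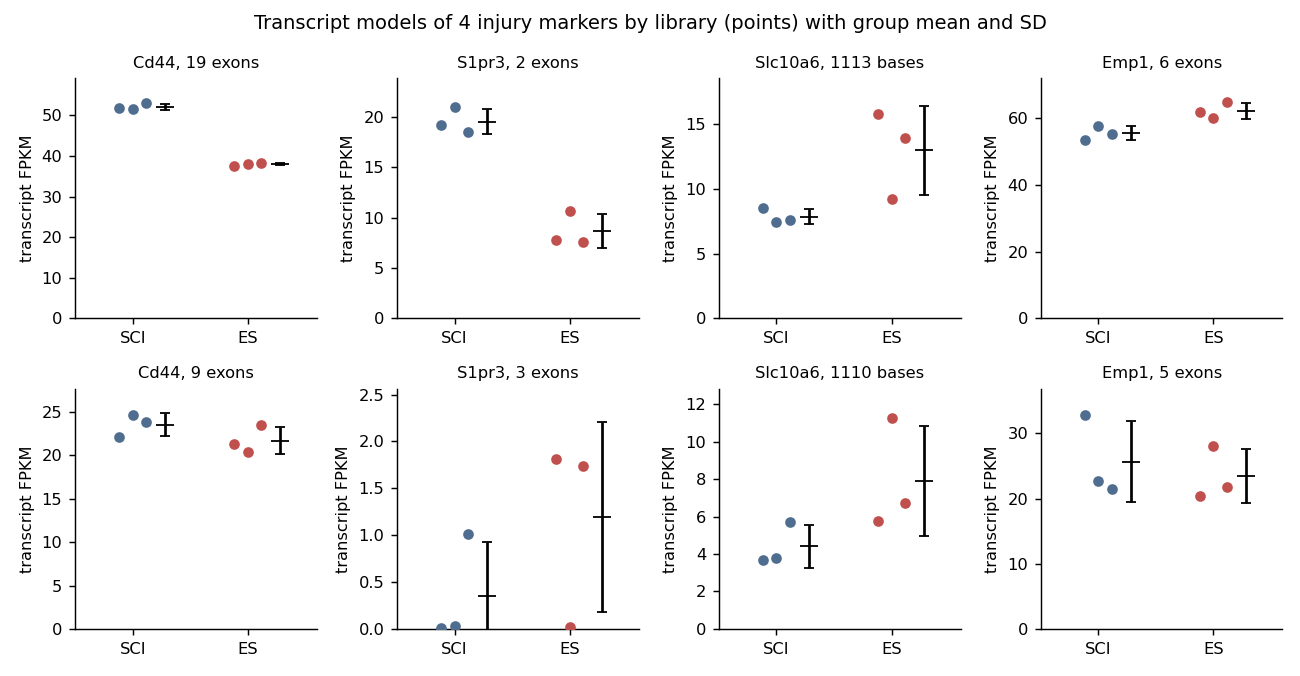
Transcript FPKM (vertical axes, from 0) of the 2 tested models of Cd44, S1pr3, Slc10a6 and Emp1 in each SCI and ES library, with mean and SD; 1 SD bar is cut at 0. The 19-exon Cd44 model lies at 37.6 to 38.2 in ES and 51.6 to 53.0 in SCI, while the 9-exon model overlaps, and ES replicate 2 swaps places between the 2 Slc10a6 models.

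The genes around the receptors were read from lists of pathway genes. Of 17 tested genes of the gp130 and STAT3 route 5 rose and 8 fell, with a median log2 fold change of 0.01. Without ES replicate 3 or after rescaling to equal totals 3 rose. The calls of Cntfr (lower) and Ptpn11 (higher) were each lost in 7 of 15 alternatives, and that of Socs3 (higher) in 3. Il6st, the gp130 chain with which the Osmr product pairs, fell from 43.1 ± 0.827 to 27.9 ± 2.05 FPKM (SD, n = 3). Lifr, the leukaemia inhibitory factor receptor, another chain that pairs with gp130, fell from 4.89 ± 0.313 to 2.19 ± 0.109. Il6r, the interleukin 6 receptor chain, rose from 9.74 ± 0.118 to 15.1 ± 0.819 FPKM. Cntf, a glial cytokine of the family, fell from 34.4 ± 2.11 to 23.1 ± 0.466 FPKM. The ligand gene Osm stood at 1.67 ± 0.0655 FPKM in ES and 1.55 ± 0.163 in SCI and did not pass (adjusted p = 0.531). Stat3 fell from 49.1 ± 1.07 to 43.0 ± 0.307 FPKM (adjusted p = 0.00195).

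Of 10 tested genes of sphingosine 1-phosphate 3 rose and 3 fell (median -0.05). The call of Sgpp1, among those that rose, was lost in 9 of 15 alternatives, 5 of them single omissions (adjusted p up to 0.248). Besides S1pr3, the receptor genes S1pr1, S1pr2 and S1pr5 were measured above 1 FPKM, and they did not move alike. S1pr1, the receptor of endothelium, astrocytes and lymphocytes, fell from 31.2 ± 1.11 to 23.2 ± 0.735 FPKM. S1pr5, a receptor of oligodendrocytes, rose from 29.0 ± 2.82 to 47.3 ± 1.36 FPKM, and S1pr2 stood at 11.7 ± 0.0788 against 12.2 ± 0.501 (adjusted p = 0.390). Sphk1, a kinase that makes the lipid, fell from 4.71 ± 0.602 to 3.05 ± 0.318 FPKM, and Plpp3, a phosphatase that degrades it outside cells, from 75.4 ± 0.616 to 41.2 ± 0.607.

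Of 14 tested hyaluronan and Cd44 partner genes 5 rose and 5 fell (median -0.07). The call of Msn, among those that fell, was lost in 6 of 15 alternatives, 4 of them single omissions. Spp1, osteopontin, a matrix ligand reported to bind CD44, was 3.12-fold higher in ES (2308 ± 21.0 against 740 ± 11.3 FPKM, SD, n = 3). Lyve1, another hyaluronan receptor, rose from 4.89 ± 0.442 to 12.5 ± 1.01 FPKM. Cemip, which breaks hyaluronan down, fell from 33.9 ± 0.700 to 21.3 ± 0.415 FPKM, and Tnfaip6, a secreted protein that links hyaluronan and binds PTX3, from 31.6 ± 0.241 to 17.4 ± 2.08. Of the hyaluronan synthase genes 1 of 3, Has2, reached the filter, at 0.503 ± 0.0592 against 0.747 ± 0.198 FPKM (adjusted p = 0.180). Around Cd109, all 7 genes of the transforming growth factor beta list passed the test, 3 higher and 4 lower. Tgfbr1 rose from 39.2 ± 1.32 to 54.6 ± 0.897 FPKM and Tgfb1 from 54.7 ± 3.69 to 68.8 ± 1.78, and the co-receptor gene Tgfbr3 fell from 21.2 ± 0.667 to 13.1 ± 0.512. Of 4 other tested genes of the Cd109 family 1 rose and 2 fell. A2m, alpha-2-macroglobulin, rose from 101 ± 1.36 to 158 ± 3.82 FPKM, and C4a and C3 fell. The C3 call (adjusted p = 0.0252) was lost in 5 of 15 alternatives, and C4b passed as higher only without SCI replicate 1.

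The other genes of the pan-reactive and ischaemia sets were counted in the same way. Of 8 other pan-reactive genes 6 fell, 0 rose and 2, Timp1 and Lcn2, did not pass (adjusted p = 0.184 and 0.234), with a median log2 fold change of -0.47. Timp1 passed as lower after rescaling to equal totals and had the opposite sign under median centring. Of 6 other tested genes of the ischaemia set 3 fell and 2 rose (median -0.26). S100a10, a calcium-binding protein that partners annexin A2, fell from 375 ± 13.5 to 303 ± 7.32 FPKM, Clcf1, a cytokine of the gp130 family, from 3.75 ± 0.108 to 2.58 ± 0.303, and Sphk1 by the values above (SD, n = 3). Cd14, a lipopolysaccharide co-receptor, rose from 24.8 ± 1.05 to 33.9 ± 1.01 FPKM and Ptgs2, cyclooxygenase 2, from 2.50 ± 0.357 to 4.43 ± 0.378. Of 10 genes of the lipopolysaccharide set 6 fell and 2 rose (median -0.40). Fbln5, a protein of elastic fibres, fell from 10.8 ± 0.269 to 4.26 ± 0.326 FPKM, and Fkbp5, a co-chaperone induced by glucocorticoids, rose from 13.1 ± 0.677 to 31.1 ± 0.517.

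Markers of cell types moved with the groups as well. Of 14 astrocyte identity genes 12 fell and 1 rose (median -0.63), and their summed level was 4139 to 4268 FPKM in ES and 5139 to 5169 in SCI. Of 8 tested endothelial genes 6 fell and 0 rose (median -0.46), with a summed level of 96.9 to 99.2 FPKM in ES and 140 to 142 in SCI. Cldn5, a defining endothelial gene, was listed at 0 in all 6 libraries. Of 8 mural cell genes 7 fell (139 to 141 FPKM in ES, 221 to 231 in SCI), and of 6 fibroblast genes 6 fell (1082 to 1093 and 1311 to 1328). Of 10 macrophage and microglia genes 7 rose and 0 fell (1516 to 1581 FPKM in ES, 1320 to 1340 in SCI), of 7 tested neutrophil genes 4 rose and 1 fell (96.0 to 99.7 and 60.9 to 63.3), and of 5 erythrocyte genes 5 rose (3087 to 3297 and 537 to 565). Of 8 Schwann cell genes 6 fell and 2 rose (717 to 723 FPKM in ES, 1225 to 1238 in SCI), of 8 oligodendrocyte genes 8 rose (13393 to 13420 and 8453 to 8538), and of 10 neuron genes 7 rose and 0 fell (512 to 564 and 429 to 451). Without ES replicate 1, 2 astrocyte identity genes rose, and 1 Schwann cell gene rose without any 1 of ES replicates 1 and 2 and SCI replicates 1 and 2. Calls in other lists were also lost in some of the 15 alternatives. In the macrophage list this was so for Cd163 in 9 and Cx3cr1 in 5, and in the mural list for Abcc9 in 8 and Kcnj8 in 3. Endothelial Tie1 lost its call in 5 and Esam in 2, oligodendrocyte Ermn in 6 and fibroblast Fbln1 in 1. The part of the cell types in the values of the injury markers was not tested.

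**Figure D4:**
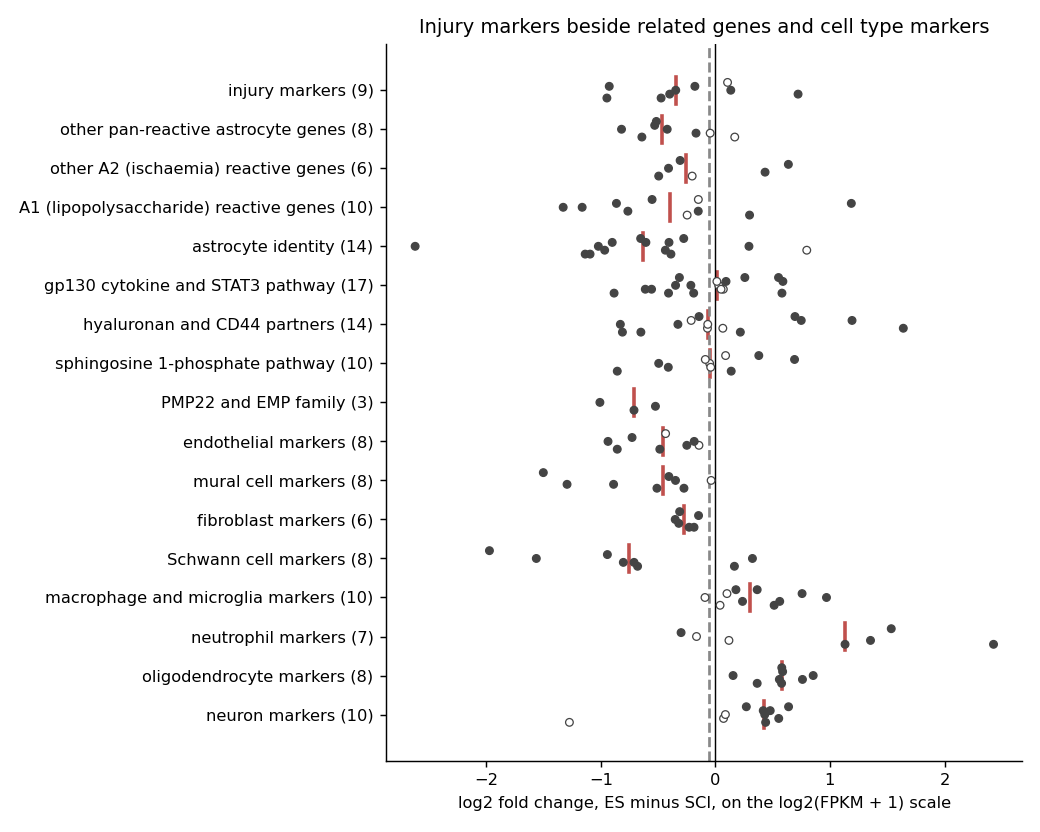
Log2 fold change (horizontal axis, ES minus SCI on the log2(FPKM + 1) scale) of each tested gene in the lists named on the left, with the number tested in brackets; filled points passed the test, red bars are list medians and the dashed line is the median of all genes tested. The median of the injury markers, -0.35, lies between those of the endothelial (-0.46) and fibroblast (-0.27) lists, and the astrocyte identity median is -0.63.

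Because Gfap, the astrocyte filament gene, itself fell from 2880 ± 10.7 to 1995 ± 2.27 FPKM (SD, n = 3), each injury marker was also given per 1000 FPKM of Gfap in the same library, a measure chosen after the values were seen and given without a test. S1pr3 stood at 4.69, 5.22 and 4.53 in ES and 6.49, 7.11 and 6.63 in SCI, and Tm4sf1 at 5.35, 5.08 and 5.23 against 8.01, 6.89 and 6.70. Both thus stayed lower in every ES library. Cd109 overlapped, at 1.37 to 1.62 in ES and 1.42 to 1.67 in SCI. Cd44, at 22.6 to 23.2 in ES and 20.6 to 21.4 in SCI, Steap4, at 4.63 to 4.94 and 4.18 to 4.46, and Osmr, at 3.43 to 3.73 and 2.77 to 2.95, lay above SCI on this scale. Slc10a6 stood at 9.46 to 10.03 in ES and 3.61 to 4.29 in SCI, Emp1 at 31.9 to 33.5 and 20.1 to 20.8, and Ptx3 at 2.64 to 2.74 and 1.57 to 1.79. Gfap is not a count of astrocytes, so these ratios show only that the genes and Gfap changed by unequal amounts.

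**Figure D5:**
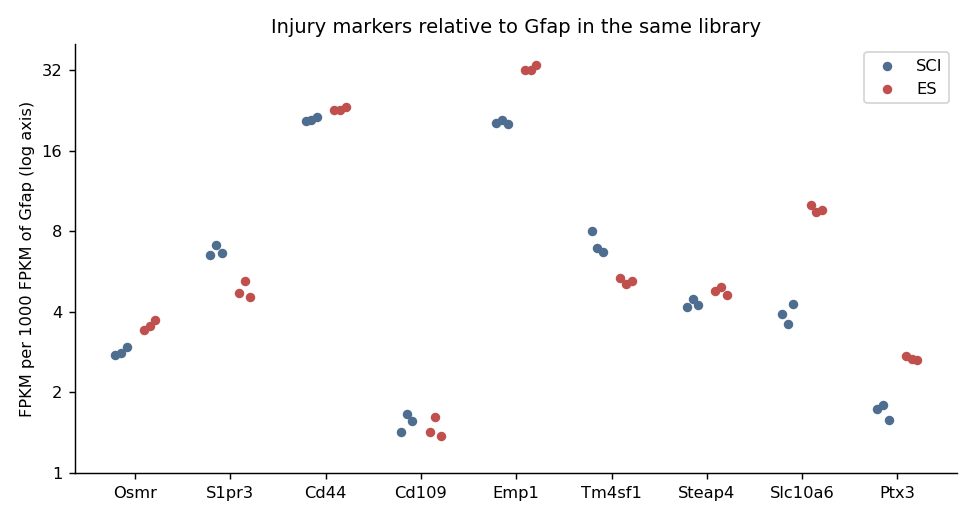
Each injury marker in FPKM per 1000 FPKM of Gfap in the same library (vertical axis, log scale); points are the 3 SCI and 3 ES libraries. S1pr3 and Tm4sf1 are lower in ES on this scale, Cd109 overlaps between 1.37 and 1.67, and the other 6 genes are higher in ES.

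S1pr3 had the largest called change of the 9 in size, and the genes nearest to its pattern were sought among 9129 genes with a symbol other than a placeholder name and a mean of at least 5 FPKM. The measure was the distance between log2(FPKM + 1) values over the 6 libraries after each gene's mean was taken off. The nearest were Slfn5, a Schlafen family gene, at 0.0811, Adgrf5, an adhesion receptor of endothelium and lung, at 0.0825, and Gstm7, a glutathione transferase gene, at 0.109. Slfn5 stood at 16.1 ± 0.832 FPKM in ES and 31.9 ± 0.648 in SCI (SD, n = 3), Adgrf5 at 5.37 ± 0.278 and 11.5 ± 0.358, and Gstm7 at 28.5 ± 0.689 and 56.5 ± 1.05. All 3 are lower in every ES library, and over 6 libraries in 2 groups such likeness is mostly a like fold change.

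In the authors' deposited table, S1pr3 was the only 1 of the 9 genes marked as significant, with a log2 ratio of -1.02. Among all 32623 genes, the authors marked 1026, each with a log2 ratio of at least 1 in size. Tm4sf1, at -0.99, lay just short of the size of 1 that the marks require. The authors' deposited table gave q-values under 0.05 for 7 of the 9, and 0.578 for Osmr and 0.517 for Ptx3. How many of all genes had a q-value under 0.05 was not counted, so whether 7 of 9 is unusual is not known.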

How the data were processed

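Poly(A) RNA from 6 rat spinal cord libraries was sequenced as stranded read pairs, per the labels' protocols. The deposited gene and transcript values are FPKM, made by the authors. The submitters' processing notes list HISAT and StringTie. Neither their settings nor a genome build were stated in the labels or file headers. The deposited tables also hold the authors' ratio of mean FPKM, its log2 value, and p-values and q-values from a test that the file headers do not name. Values of 0.0001 in the deposited FPKM columns stand for 0 and were set to 0.

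From the FPKM, log2(FPKM + 1) was tested with limma 3.58.1 in R 4.3.3, two-sided, with a mean-variance trend, for features with a mean of at least 0.5 FPKM, and Benjamini-Hochberg adjustment over all features tested. A call is an adjusted p under 0.05. FPKM are not counts, so no count test was run. A fold change on this scale understates the change of low genes. Transcript usage was tested with limma's diffSplice. Estimated fragments and the spread they give cover counting error only. The limma test was checked on simulated data, where 74.6% of simulated 1.5-fold changes of genes and 68.7% of those of transcripts were recovered. Of 187 calls for genes 8 were false, and of 166 for transcripts 12. Those changes were set on the log2(FPKM + 1) scale, in a small part of the features and above a minimum level. In the data 45% of genes were called, so the simulated rates need not hold there. The diffSplice test was not checked in this way. Figures were drawn with matplotlib 3.10.9.

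The members and lists were chosen with earlier results of these data known. All members were named. From other lists up to 4 tested genes with the smallest p were named, with family members at 1 FPKM or more and the 3 genes nearest to the member with the largest called change. Stat3, Osm, Has2, Cldn5, Timp1 and Lcn2 fall outside that rule and were named after their values were seen, as were Serpina3c and Serpina3m. Genes given only for the loss of their calls were also named after their values were seen. Groups follow the labels, and table columns were assigned by the treatment and number in their names. The alternatives were a pseudocount of 0.1, no filter, a filter of 2 FPKM, 3 other scalings, array weights, no trend, a replicate block and omission of each library. A 1.5-fold minimum was added after the data were seen.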

Additional observations from a re-analysis of the deposited data

How the results depend on the processing

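No injury marker changed sign at the gene level under any of the 15 alternatives tried. With a minimum change of 1.5-fold on the log2(FPKM + 1) scale, chosen after seeing the data, 3 of the 9 genes passed instead of 8. By the ratio of mean FPKM 4 of the 9 reached 1.5-fold, as did 20.6% of all genes tested. After rescaling to equal totals 1 gene passed as higher instead of 2. Leaving out each library in turn gave 7 to 8 genes in all, 5 to 6 lower and 2 higher, 5 to 7 transcripts against 6, and 131 to 136 list genes against 142. Transcript usage was called in 0 genes, in 2 without a filter (Cd44 and Steap4), and in 0 to 1 when libraries were left out, the 1 being S1pr3 without ES replicate 2. The 5-exon Emp1 model (ENSRNOT00000079785) reversed without SCI replicate 1, to a log2 fold change of 0.0648 (adjusted p = 0.781), and ranged from -0.2504 to 0.0648 over the omissions. The cause was not tested. Groups share replicate numbers, but same-numbered libraries did not deviate together (correlations -0.026, -0.026 and -0.029). The other pairs gave -0.053 to 0.08. With 3 libraries a group, this check cannot exclude a pairing, so whether the numbers pair the samples is not known. With a replicate block 8 genes, 5 transcripts, 0 genes by usage and 131 list genes passed. Ptx3 had the fewest estimated fragments of the 9 genes, 146 to 165 a library, and whether depth limited its result was not tested.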
